A study of Homo sapiens with 40 samples.

Results

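The genes described here are 10 genes of the amino acid stress pathway run by the transcription factor ATF4: ATF4 itself, ASNS, PSAT1, PHGDH, PSPH, CHAC1, DDIT3, TRIB3, SESN2 and STC2. They were taken by name from the 62263 genes of the deposited table through their Ensembl identifiers, and all 10 were among the 16735 genes that passed the filter on low counts. The members were chosen by name with their CPM in replicate 1 of the unstimulated control cells in view, so the levels in that replicate are given as a description and support nothing.

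The RNA was that of BEAS-2B, a bronchial epithelial line of human origin that has been immortalised, in a Frac-seq design that sequences total RNA (input) and RNA bound to polyribosomes (polysome). One stable line expressed a control short hairpin RNA, the other a short hairpin RNA that targets the mRNA of the RNA-binding protein IGF2BP3. Both are described as hairpin lines in the growth protocol, while the sample titles write siC and siIGF2BP3, so the kind of knockdown is given in different ways. They are called control and knockdown below. Each line was starved overnight in medium labelled 2% and then left unstimulated or given the type 2 cytokine IL-13 at 100 ng/ml, and was harvested 24 h later. The 8 groups of fraction, treatment and line held 5 libraries each, 40 in all. With 1 line per hairpin, the hairpin and any other difference between the lines cannot be told apart. Nothing in the labels says that replicates were separate cultures, so p-values measure the spread between these samples, which may be technical.

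ATF4 is a basic leucine zipper factor at the end of the integrated stress response. When eIF2 is phosphorylated, by GCN2 when amino acids run short or by PERK when the endoplasmic reticulum is stressed, general translation falls while the ATF4 mRNA, which carries short upstream reading frames, is translated more. ATF4 then pairs with C/EBP factors on composite C/EBP-ATF response elements and raises genes for amino acid synthesis, uptake and tRNA charging. Prolonged signalling also raises DDIT3 (CHOP), TRIB3 and CHAC1, which take part in feedback and cell death.

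The core of that element, TGATGNAA, was searched on both strands in RefSeq promoter windows (GRCh38.p14, 250 bases before to 50 after a gene start). Windows existed for 9 of the 10 genes, PSPH having no entry, and 2 of the 9 held a match in any of their windows, against 4.46% of all 27305 genes with windows and 2.64% of the 11523 of them that were tested. Both matches are shown because ATF4 is known to act through this element. The capitals mark the match, which is a description of letters and not a binding site found here, and each stretch is written on the strand of its gene. In ASNS (chr7:97872423-97872522, minus strand) the match began 68 bases before the gene start, and in CHAC1 (chr15:40953221-40953315, plus strand) it began 209 bases before it and read on the opposite strand.
ASNS: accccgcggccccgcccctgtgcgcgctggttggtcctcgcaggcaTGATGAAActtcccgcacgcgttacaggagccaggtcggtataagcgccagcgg
CHAC1: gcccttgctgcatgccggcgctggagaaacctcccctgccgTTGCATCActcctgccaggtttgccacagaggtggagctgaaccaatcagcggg
Counted in the same way by gene, a match was found for 7 of 10 tRNA synthetases of the pathway, 5 of 11 amino acid transporters, 3 of 11 other metabolic targets and 2 of 10 other stress targets with windows. It was found for 1 of 13 upstream eIF2 kinases and regulators, and for 1 of 18 genes of the ATF6 and XBP1 branches of the unfolded protein response.

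Input libraries held 14044352 to 40441061 estimated counts and polysome libraries 1816848 to 34082191, of which 3 knockdown libraries were under 5000000. Keratins of simple epithelium were expressed in all 40 libraries (KRT8 at 746 to 2309 CPM in input), while EPCAM, CDH1 and KRT5 reached at most 4.18 CPM. The fibroblast genes COL1A1, COL1A2 and PDGFRB were expressed in all 40 libraries too, while LUM and DCN had counts in 2 and 3. PTPRC, CD3E, PECAM1 and KDR stayed under 1 CPM throughout. CD14 had counts in all 40 libraries and CDH5 in 38, at up to 30.6 and 12.4 CPM in input. IGF2BP3 averaged 35.2 ± 11.3 CPM in control and 24.9 ± 3.02 CPM in knockdown unstimulated input (SD, n = 5), and 11.2 ± 6.84 and 11.2 ± 8.60 CPM (SD, n = 5) in unstimulated polysome RNA. With IL-13, IGF2BP3 averaged 35.4 ± 6.72 CPM in control and 25.8 ± 6.29 CPM in knockdown input (SD, n = 5). In polysome RNA with IL-13 it averaged 10.6 ± 3.62 and 9.15 ± 4.79 CPM (SD, n = 5). The targeted mRNA was thus not lower in unstimulated polysome RNA, and directions given for the knockdown rest on the labels. CPM here are counts scaled to a common library total after TMM normalisation.

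Levels of different genes were compared on deposited TPM, which are scaled for transcript length. Without replicate 1, ATF4 stood first in unstimulated control input at 264 ± 21 TPM (SD, n = 4), ahead of PHGDH at 147 ± 10.3. PSAT1 followed at 47.3 ± 20.6 and TRIB3, a pseudokinase that acts as a feedback inhibitor, at 21.8 ± 7.49 TPM. DDIT3 (15.6 ± 3.52), SESN2 (14.8 ± 2.83) and PSPH (13.8 ± 2.55) lay within 1 SD of each other. ASNS (11.4 ± 7.99), STC2 (8.93 ± 5.94) and CHAC1 (4.55 ± 3.76 TPM) came last, and their spreads overlapped. ATF4, PHGDH, PSAT1 and TRIB3 kept the first 4 places in this order in all 4 input groups. In polysome RNA the gap between PHGDH and PSAT1 closed, to 66.6 ± 25.2 and 64.8 ± 12.6 TPM in unstimulated control. In IL-13 knockdown polysome RNA PSAT1 (43.1 ± 3.68 TPM) stood above PHGDH (38.7 ± 9.85 TPM, SD, n = 5), within the spread of PHGDH. Pseudogene copies of ATF4, PSAT1 and PSPH exist, and how reads were split between them and the genes was not tested.

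**Figure D1:**
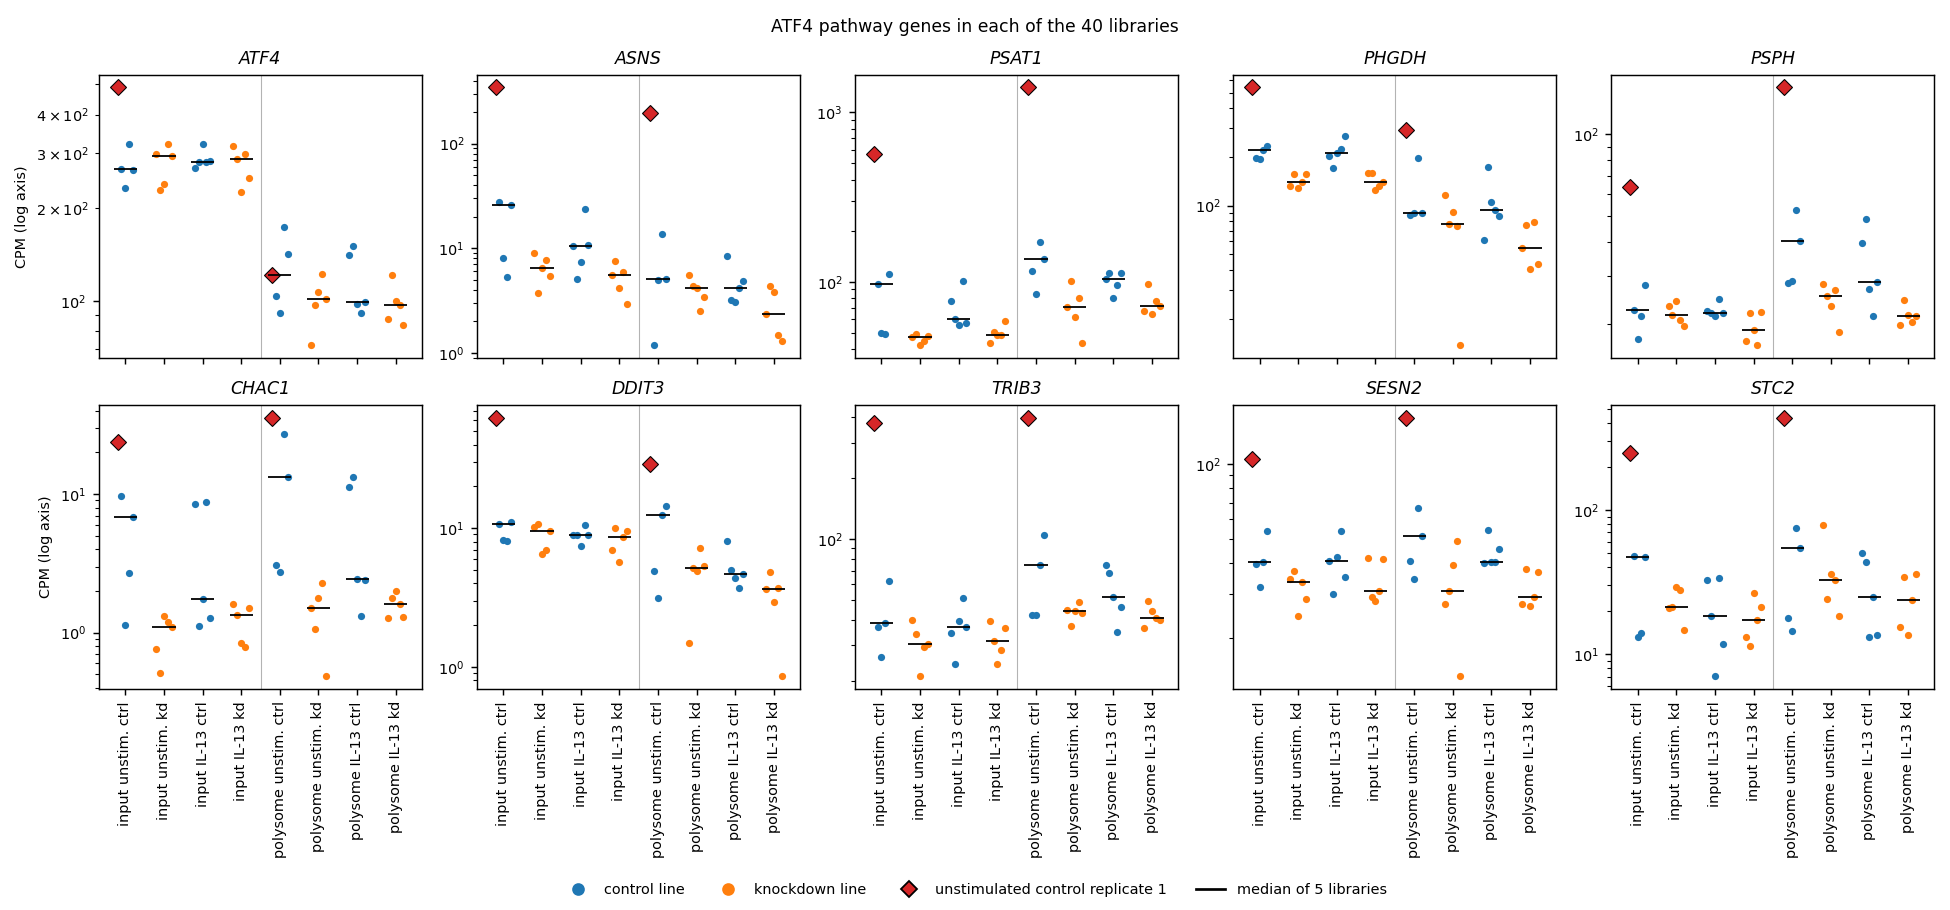
CPM (log axis) of the 10 genes in each of the 40 libraries, by group; blue points are control libraries, orange points knockdown libraries, red diamonds replicate 1 of unstimulated control, and black lines the medians of 5. The diamonds are the highest points of their fraction for every gene in input and for every gene except ATF4 in polysome RNA.

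Replicate 1 of unstimulated control held by far the most RNA of these genes. In input it was the highest of the 20 libraries for 10 of 10 genes, which was so for 14.6% of all genes tested, and in polysome RNA for 9 of 10, against 12.4%. It lay at least 2-fold above the highest of the other 19 libraries (on CPM + 1) for 7 and 6 of 10, against 1.28% and 1.14% of all genes. These shares describe what chose the list, and nothing is read from them. In bulk RNA, more cells with a transcript and more transcript per cell cannot be told apart.

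ATF4 itself measured 489, 266, 232, 322 and 265 CPM in the 5 unstimulated control input libraries, in the order of replicates 1 to 5, and 122, 104, 91.3, 173 and 142 CPM in polysome RNA. Replicate 1 was thus 1.8 times the mean of the other 4 in input, and inside their range in polysome RNA, at 0.955 times their mean and sixth of 20 libraries. ATF4 was the 1 gene of the list with this split. Its polysome CPM was 0.249 of its input CPM in replicate 1, against 0.47 for the means of the other 4 libraries and 0.39 to 0.539 between libraries of the same number. The same ratio was also lower in replicate 1 for DDIT3 (0.469 against 0.919), CHAC1 (1.50 against 2.29) and TRIB3 (1.06 against 1.61). It was nearly equal for PHGDH (0.547 against 0.548) and higher in replicate 1 for ASNS, PSAT1, PSPH, SESN2 and STC2. Libraries of the same number are not taken as pairs.

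PHGDH, PSAT1 and PSPH encode the consecutive enzymes that make serine from a glycolytic intermediate. PHGDH, the entry enzyme, measured 538, 197, 193, 220.2 and 234 CPM in input and 294, 86.7, 89.3, 197 and 89.6 CPM in polysome RNA, so replicate 1 was 2.55 and 2.54 times the mean of the other 4. PSAT1, the aminotransferase of the pathway, measured 566, 96.5, 49.6, 49.1 and 110.3 CPM in input. In polysome RNA PSAT1 measured 1399.7, 116, 84.4, 171 and 136 CPM, and replicate 1 reached the highest level of any gene of the list in any library. PSPH, the phosphatase that releases serine, measured 64.0, 22.5, 17.6, 21.4 and 27.8 CPM in input and 149, 28.2, 28.7, 52.5 and 40.5 CPM in polysome RNA. For all 3 enzymes replicate 1 lay above the range of the other 4 libraries in both fractions, and polysome replicate 4 was the highest of those 4.

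ASNS, which makes asparagine from aspartate and glutamine, had the widest gap. It measured 346, 27.7, 8.07, 5.35 and 26.2 CPM in input and 197, 1.18, 4.98, 13.6 and 5.13 CPM in polysome RNA, 20.5 and 31.6 times the mean of the other 4. Even among those 4, ASNS ranged over 5.35 to 27.7 CPM in input, replicates 2 and 5 being high and replicates 3 and 4 low.

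For the stress effectors replicate 1 was again the highest library. CHAC1, which breaks down glutathione, measured 23.6, 9.65, 1.14, 2.68 and 6.80 CPM in input and 35.5, 3.09, 2.73, 27.2 and 13.4 CPM in polysome RNA. Its replicate 1 was 4.66 and 3.06 times the mean of the other 4, and polysome replicates 4 and 5 were high as well. DDIT3, the CHOP transcription factor, measured 62.1, 10.7, 8.18, 8.12 and 11.0 CPM in input and 29.1, 4.91, 3.15, 12.5 and 14.4 CPM in polysome RNA. In input its other 4 libraries stayed within 8.12 to 11.0 CPM while replicate 1 was 6.54 times their mean. TRIB3 measured 375, 36.6, 26.2, 38.4 and 62.1 CPM in input and 397, 42.1, 42.0, 74.7 and 105 CPM in polysome RNA, with replicate 1 at 9.18 and 6.03 times the mean of the other 4. SESN2, a leucine sensor that restrains mTORC1, measured 104, 39.8, 32.1, 40.4 and 53.7 CPM in input and 153, 40.6, 34.6, 66.7 and 51.4 CPM in polysome RNA, so that replicate 1 was 2.51 times the mean of the other 4 in input, the lowest ratio of the 9 genes beside ATF4. STC2, a secreted glycoprotein, measured 249.9, 48.2, 13.3, 14.0 and 47.0 CPM in input and 434, 17.7, 14.6, 74.9 and 54.4 CPM in polysome RNA, 8.16 and 10.7 times the mean of the other 4. In the other groups STC2 reached at most 78.8 CPM in polysome replicate 1 of unstimulated knockdown.

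**Figure D2:**
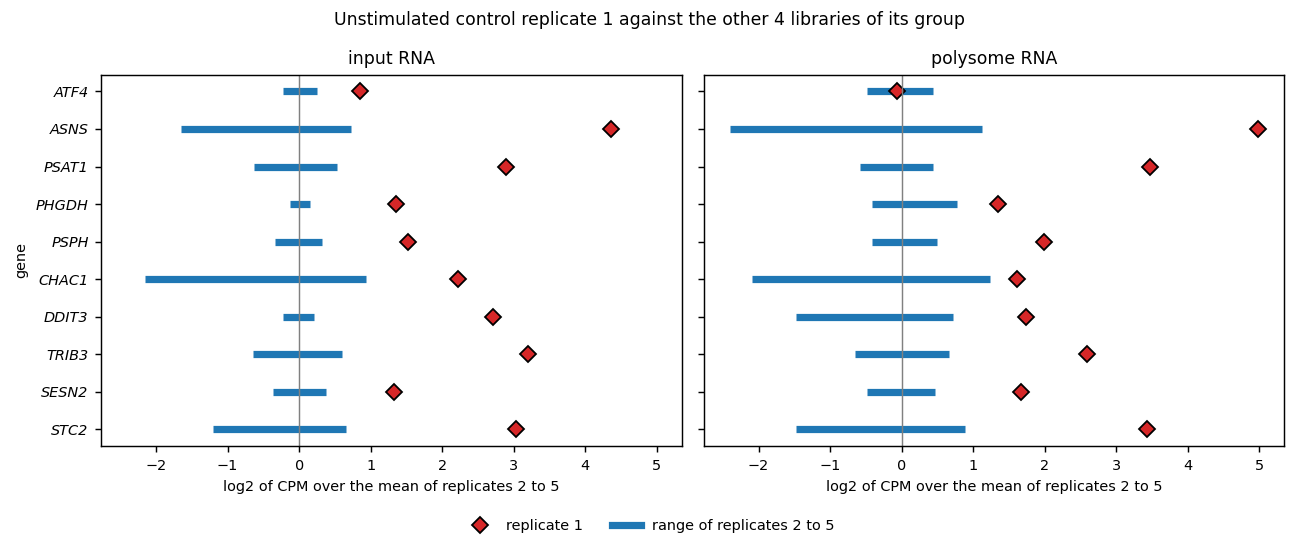
log2 of CPM over the mean of replicates 2 to 5 in unstimulated control, for input (left) and polysome RNA (right); red diamonds are replicate 1 and blue bars the range of the other 4 libraries. Every diamond lies right of its bar except that of ATF4 in polysome RNA, at -0.07.

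Other genes of the pathway were followed in the same replicate with lists from general knowledge. The lists were chosen with earlier results of these data known, so their counts are a description. On CPM + 1, 4% of all genes tested were at least 2-fold above the mean of the other 4 libraries in input and 7.13% in polysome RNA, with all-gene median log2 ratios of -0.076 and -0.034. Among other metabolic targets of ATF4, 11 of 15 were that high in input and 11 of 15 in polysome RNA, with medians of 1.45 and 1.57. They included ATF3, a stress-induced repressor (145 CPM against 18.3 ± 3.72 CPM in input, SD, n = 4), CEBPB, a partner of ATF4 (229.7 CPM against 53.6 ± 12.6), and CTH, which makes cysteine (21.9 CPM against 4.82 ± 2.04). ALDH1L2, a mitochondrial folate enzyme, was high in input (14.2 CPM against 2.11 ± 0.674) and was listed at 0 in polysome replicate 1, where the other 19 libraries reached at most 1.18 CPM.

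Of 12 tRNA synthetases, 6 were at least 2-fold higher in input and 11 in polysome RNA (medians 1.12 and 1.85). GARS1, which charges glycine tRNA, measured 362 CPM against 82.9 ± 8.81 CPM and WARS1, which charges tryptophan tRNA, 459 CPM against 107 ± 17.5 CPM in input (SD, n = 4). YARS1 and MARS1 measured 394 and 376 CPM against means of 117 and 119.9. Of 12 amino acid transporters, 5 and 7 were that high (medians 0.68 and 1.10), led by the glycine transporter SLC6A9 (83.2 CPM against 17.7 ± 6.96 CPM) and the glutamine transporter SLC1A5 (756 CPM against 247 ± 68.1 CPM). The cystine transporter SLC7A11 measured 39.3 CPM against 14.8 ± 8.74 CPM and the glutamine transporter SLC38A1 169.9 CPM against 69.3 ± 22.2 CPM. Of 14 other stress targets tested, 8 and 7 were that high (medians 1.09 and 1.07), among them ADM2 (35.1 CPM against 2.93 ± 2.62 CPM), the stress cytokine GDF15 (56.7 CPM against 6.48 ± 3.44 CPM), VEGFA (72.5 CPM against 12.7 ± 3.83 CPM) and NUPR1 (10.3 CPM against 1.69 ± 1.21 CPM).

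Lists that lie beside ATF4 in stress signalling had medians closer to that of all genes. Of 15 upstream eIF2 kinases and regulators, 1 was at least 2-fold higher in input and 3 in polysome RNA (medians 0.049 and 0.35). The 1 in input was EIF2S2, the beta subunit of eIF2 (349 CPM against 131 ± 24.1 CPM, SD, n = 4), while PPP1R15B, EIF2S3 and EIF2AK2 had log2 ratios of 0.62, 0.59 and 0.49. EIF2AK3, which encodes PERK, was more than 2-fold lower in input (1.75 CPM against 6.72 ± 2.94 CPM, log2 ratio -1.49). Of 18 genes of the ATF6 and XBP1 branches of the unfolded protein response, 1 and 3 were that high (medians -0.15 and 0.21). That 1 was XBP1 (224 CPM against 108 ± 19.6 CPM), ahead of ERN1, ATF6 and HERPUD1 with log2 ratios of 0.93, 0.77 and 0.57. Of the leukocyte markers, CD14 was at its highest of the 20 input libraries in replicate 1 (30.6 CPM, others 10.2 to 26.5), and in polysome RNA it measured 29.8 CPM (others 3.48 to 38.1). PTPRC and CD3E were at 0 in replicate 1 in both fractions, and LYZ measured 0.5 CPM in input and 0.522 CPM in polysome RNA. Summed fibroblast markers were inside the range of the other libraries of their fraction (429 CPM, others 297 to 1252 in input, and 122 CPM, others 64.0 to 309 in polysome RNA), and so were endothelial markers (2.03 CPM, others 0.174 to 13.1, and 1.88 CPM, others 0 to 8.07). Single fibroblast genes were not: in input replicate 1, COL1A2 (4.28 CPM against 30.2 ± 11.3 CPM, lowest other library 12.4) and PDGFRB (36.4 CPM against 144 ± 47.7 CPM, lowest other library 55.7) were at their lowest of the 20, and PDGFRB was so in polysome RNA (14.4 CPM, lowest other library 20.5). COL1A1 measured 388 CPM against 710.4 ± 278 CPM in input. Summed epithelial markers were inside the range too (1697 CPM, others 1357 to 3700.0 in input, and 1801 CPM, others 857 to 1962 in polysome RNA), although KRT19 (10.5 CPM against 31.3 ± 19.6 CPM) and CDH1 (0.143 CPM against 2.12 ± 1.48 CPM) were more than 2-fold below the mean of replicates 2 to 5 in input. The part of these markers in the result was not tested. The replicate held 25416354 counts in input and 10509775 in polysome RNA, and mitochondrially encoded mRNAs took 3.55% and 0.427% of them, inside the ranges over all libraries of 1.80% to 5.55% and 0.149% to 1.00%.

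**Figure D3:**
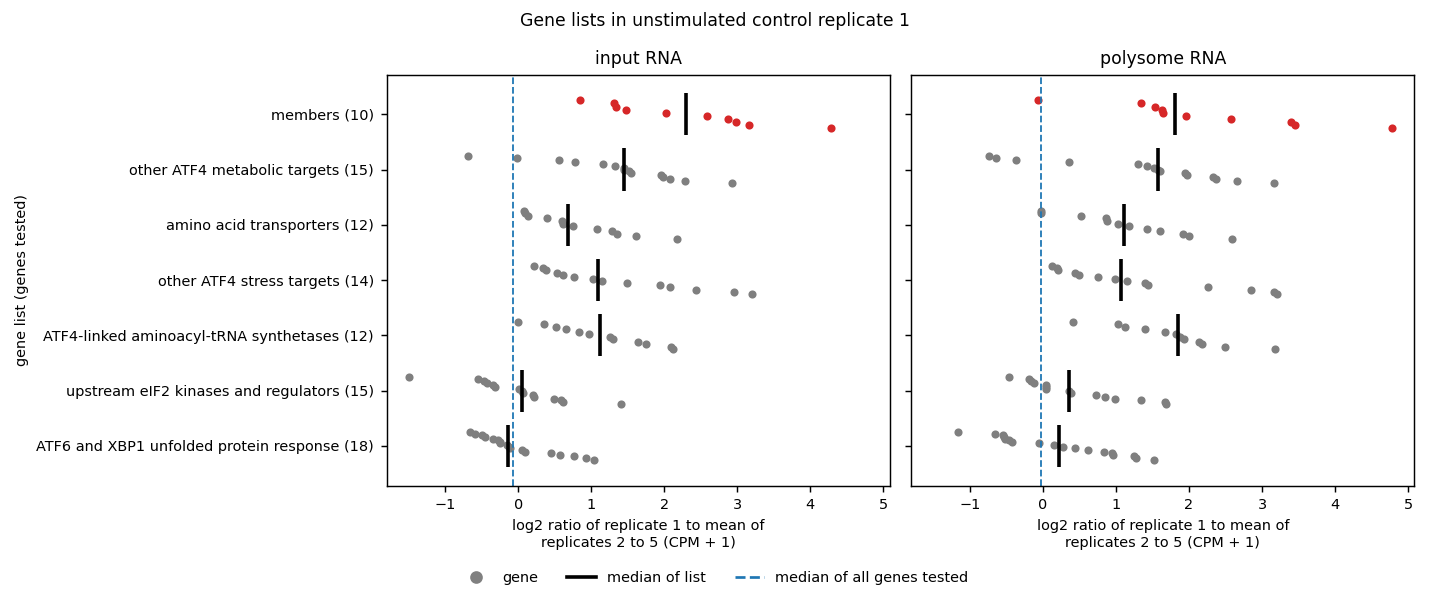
log2 ratio of replicate 1 to the mean of replicates 2 to 5 (CPM + 1) in unstimulated control for each gene of 7 lists, in input (left) and polysome RNA (right); points are genes (red for the 10 genes described here), black bars list medians and dashed blue lines the median of all genes tested. Lists of ATF4 targets lie to the right of the dashed line, with medians from 0.68 to 2.30 in input, and the upstream and ATF6 and XBP1 lists lie around it.

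The knockdown line was compared with the control line within each treatment and fraction. All 10 genes had lower fitted levels in knockdown cells in all 4 settings, but none passed the test over all genes (edgeR quasi-likelihood test, 1 mean per group over all 40 libraries, Benjamini-Hochberg adjustment over 16735 genes, called under 0.05). Over all genes tested, 0.012%, 0%, 0.0299% and 0.0896% were called in unstimulated input, IL-13 input, unstimulated polysome and IL-13 polysome RNA, and 52.2%, 51%, 53.5% and 53.5% had fitted log2 fold changes below 0. The unstimulated settings contain replicate 1, which chose the list, and the IL-13 settings do not. Spread was estimated over all 40 libraries, so that replicate also enters the SE and p-values of the IL-13 settings. The lack of calls there is thus not free of it. With IL-13 the median of the 10 genes was -0.23 on the log2 scale in input and -0.54 in polysome RNA, where all genes had medians of -0.0054 and -0.035. With IL-13, 1 and 2 of the 10 genes had an unadjusted p under 0.05 in input and polysome RNA, against 3% and 9.92% of all genes, and the DESeq2 Wald test called 0 of 10 in both, against 0.329% and 0.862%. The genes rise and fall together over libraries, so their shared direction is not 10 separate observations.

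PHGDH separated the lines in input. With IL-13 it measured 203, 170.1, 212, 225 and 270.2 CPM in control and 159, 158, 125, 132 and 139 CPM in knockdown cells. All 5 control libraries were above all 5 knockdown libraries, as for 0.663% of all genes in that direction, and the log2 fold change was -0.60 ± 0.346 (SE, edgeR adjusted p = 1, unadjusted 0.0913). Unstimulated knockdown input measured 131, 156, 129, 141 and 156 CPM, again under every control library, with or without replicate 1 (background 0.502% with it and 0.95% without). Without replicate 1 the unstimulated difference was -0.57 ± 0.311 (SE), close to that with IL-13, with an edgeR adjusted p of 1. In polysome RNA with IL-13 the ranges overlapped, at 61.1 to 172 CPM in control and 40.3 to 79.2 CPM in knockdown cells.

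CHAC1 had the largest fitted differences that did not rest on replicate 1. Knockdown libraries never exceeded 2.30 CPM, while some control libraries were high and others were not. The shallowest libraries, where CHAC1 had few counts, were all polysome libraries of knockdown cells. They were replicates 1 and 5 without IL-13 (3980588 and 1816848 counts in total) and replicate 5 with IL-13 (2302952). With IL-13, input measured 8.53, 1.12, 1.74, 8.79 and 1.27 CPM in control and 1.62, 1.33, 0.836, 0.785 and 1.50 CPM in knockdown cells, with a log2 fold change of -1.83 ± 0.702 (SE, edgeR adjusted p = 1). Polysome RNA with IL-13 measured 11.3, 13.2, 2.44, 1.32 and 2.39 CPM and 1.28, 1.78, 1.99, 1.61 and 1.30 CPM, with a log2 fold change of -1.91 ± 0.714 (edgeR adjusted p = 0.339). The high control libraries were replicates 1 and 4 in input and 1 and 2 in polysome RNA, and the others lay near the knockdown libraries. In unstimulated polysome RNA the knockdown libraries, at 1.50, 1.07, 1.77, 2.30 and 0.489 CPM, were all below the control libraries, and the log2 fold change without replicate 1 was -2.92 ± 0.716 (edgeR adjusted p = 0.118).

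PSPH was the other gene without overlap in unstimulated polysome RNA. Its knockdown libraries measured 27.9, 25.2, 23.2, 26.7 and 18.6 CPM, all below the lowest control library at 28.2 CPM (background 0.305%, and 0.651% without replicate 1). The gap between the nearest libraries was small against the spread within control. SESN2 had no overlap in IL-13 polysome RNA, at 40.0, 54.4, 40.3, 40.5 and 45.7 CPM in control and 27.4, 38.0, 26.9, 29.4 and 36.8 CPM in knockdown cells (background 1.11%). Its log2 fold change there was -0.49 ± 0.306 (SE, edgeR adjusted p = 0.638).

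The other genes did not pass the test with IL-13 either. With IL-13, ASNS measured 10.4, 5.11, 7.40, 23.7 and 10.7 CPM in control and 5.52, 7.57, 4.18, 5.94 and 2.93 CPM in knockdown input, and control replicate 4 alone stood high. PSAT1 measured 77.1, 60.2, 55.2, 101 and 56.9 CPM and 43.7, 50.6, 48.3, 48.8 and 58.4 CPM, with control replicates 1 and 4 high. Log2 fold changes were -1.13 ± 0.847 and -0.49 ± 0.526 (SE). For ATF4 they were -0.06 ± 0.183 in input and -0.24 ± 0.184 in polysome RNA, the smallest of the list in both, with 95% intervals of -0.43 to 0.31 and -0.61 to 0.13. DDIT3, TRIB3 and STC2 had log2 fold changes of -0.13 ± 0.464, -0.22 ± 0.495 and -0.21 ± 0.671 in IL-13 input. The sign for STC2 turned without input control replicate 1 or replicate 4, and that for ATF4 in input without knockdown replicate 3 (values in the closing section).

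Replicate 1 set the size of the unstimulated differences. With it, the median of the 10 genes was -1.45 in input and -1.49 in polysome RNA, and ASNS reached -3.68 ± 0.919 and -3.48 ± 0.951 (SE). Without it, in the fit of 38 libraries, the medians were -0.41 and -0.62 and ASNS stood at -1.38 ± 0.489 and -0.67 ± 0.513. ATF4 in input changed from -0.19 ± 0.183 to 0.03 ± 0.176, so 9 of 10 genes were then lower in input and 10 of 10 in polysome RNA. No gene of the list was called in either fit for the unstimulated settings, in input or in polysome RNA. With replicate 1, 8 and 9 of the 10 had an unadjusted p under 0.05, against 2.97% and 7.42% of all genes. Those counts rest on the libraries that chose the list, and nothing is read from them. Without it 3 and 6 had one, against 2.27% and 8.59% of all genes. The DESeq2 Wald test with replicate 1 called ASNS and CHAC1 in input, and ASNS, CHAC1, PSAT1 and PSPH in polysome RNA, all lower, where it called 0.168% and 0.533% of all genes; that test was not run without the replicate.

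**Figure D4:**
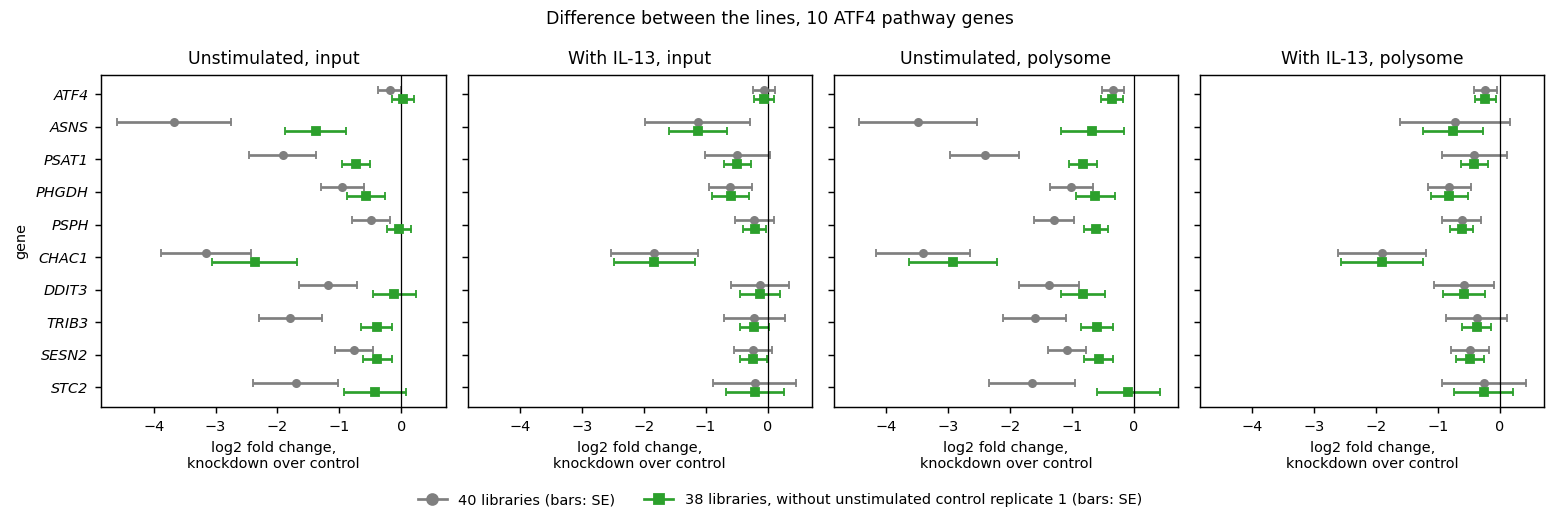
log2 fold change of knockdown over control for the 10 genes in 4 settings, with standard errors as bars; grey circles are the fit of 40 libraries and green squares the fit of 38 without replicate 1 of unstimulated control. Grey and green lie together in the IL-13 settings, and in the unstimulated settings the green points lie nearer 0 for every gene except ATF4 in polysome RNA, with medians of -0.41 and -0.62 against -1.45 and -1.49.

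Each line and fraction gave its own comparison of cells with and without IL-13. No gene of the list was called by edgeR in any of the 4 comparisons, where 0.0777% of all genes were called in control input, 0.0837% in knockdown input, 0.125% in control polysome and 0.0956% in knockdown polysome RNA. In the same order, unadjusted p-values under 0.05 were found for 5, 0, 8 and 0 of the 10 genes and for 2.04%, 1.03%, 5.14% and 3.21% of all genes, and both control counts include replicate 1. The DESeq2 Wald test called ASNS, lower, in control polysome RNA and none of the list in the others, against 0.201%, 0.132%, 0.365% and 0.215% of all genes. In knockdown cells, which lack replicate 1, the medians were -0.0028 in input (5 of 10 below 0, against 49% of all genes) and -0.12 in polysome RNA (8 of 10 below 0, against 53.3%). ATF4 in knockdown input measured 299, 228, 239, 322 and 295 CPM without IL-13 and 317, 287, 226, 298 and 249 CPM with it, and the 95% interval of its log2 fold change was -0.38 to 0.37. For PHGDH that interval was -0.70 to 0.70, for PSAT1 -0.96 to 1.18 and for CHAC1 -1.14 to 1.74. The width of these intervals, like the p-values in knockdown cells, rests on the spread over all 40 libraries, replicate 1 included. In knockdown input itself PSAT1 averaged 46.2 ± 2.80 CPM without IL-13 and 49.9 ± 5.34 CPM with it (SD, n = 5). The control comparisons use the same unstimulated control libraries as the unstimulated knockdown comparisons. In control cells all 10 genes had log2 fold changes below 0 in both fractions (50.5% and 50.4% of all genes), with medians of -1.10 and -1.29. Without replicate 1 these medians were -0.11 (7 of 10 below 0) and -0.30 (10 of 10), so the size of the control effect rested on that replicate. The gene with the largest control values, ASNS, at -2.85 ± 0.883 and -3.25 ± 0.915, then stood at -0.55 ± 0.485 and -0.43 ± 0.499 (SE).

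Tests of differences between effects gave no call in the list. Whether IL-13 acted differently in the lines was tested in input (called: 0% of all genes) and in polysome RNA (0%), and 2 of the 10 genes had an unadjusted p under 0.05 in each, against 0.914% and 3.36% of all genes. Both tests include replicate 1. Whether the IL-13 effect shifted from input to polysome RNA was tested in control (0%) and knockdown cells (0%), and whether the knockdown effect did so without (0%) and with IL-13 (0.00598%). None of the 10 genes had an unadjusted p under 0.05 in these 4 shifts, against 1.95%, 1.31%, 1.69% and 1.79% of all genes. The DESeq2 Wald test called 0 of 10 in all 6 tests, against 0.0359%, 0.15%, 0.12%, 0.0299%, 0.0598% and 0.0598% of all genes.

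Polysome RNA was compared with input RNA in each group of line and treatment, and the genes of the list did not share a direction. ATF4 was lower in polysome RNA in all 4 groups and PHGDH in all 4, DDIT3 was lower in IL-13 knockdown cells, and PSPH was higher in unstimulated control cells. Over all genes tested, 17.4%, 16.4%, 16.7% and 16% were called higher, and 22.8%, 22%, 22.6% and 23.3% lower, in unstimulated control, unstimulated knockdown, IL-13 control and IL-13 knockdown cells. Against these the list had 1, 0, 0 and 0 genes called higher and 2, 2, 2 and 3 called lower. These counts lay near or below the shares of all genes, so they are not read as a trait of the list. All-gene medians were -0.20, -0.20, -0.19 and -0.23 on the log2 scale, and the medians of the 10 genes were 0.32, 0.10, 0.31 and 0.014. The 4 comparisons use separate libraries, and the libraries of both knockdown groups and the IL-13 control group do not include replicate 1 of unstimulated control. Their tests do not escape it, because the spread was estimated over all 40 libraries. Calls in the fit without that replicate are given below.

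ATF4 mRNA was the clearest case. In unstimulated knockdown cells it measured 299, 228, 239, 322 and 295 CPM in input and 72.1, 96.9, 107, 123 and 101 CPM in polysome RNA. With IL-13 it measured 269, 281, 322, 282 and 283 CPM in input and 141, 150.2, 97.8, 91.2 and 99.5 CPM in polysome RNA of control cells, and 87.7, 121, 100.2, 97.0 and 83.6 CPM in polysome RNA of knockdown cells. Every polysome library was below every input library of its group in all 4 groups, as for 15.6%, 19.7%, 16.2% and 21.5% of all genes in the order of groups above. Log2 fold changes were -1.32 ± 0.186 in unstimulated control, -1.47 ± 0.187 in unstimulated knockdown, -1.31 ± 0.186 in IL-13 control and -1.49 ± 0.187 in IL-13 knockdown cells (SE, edgeR adjusted p of 3.3e-07, 5.6e-08, 3.9e-07 and 3.7e-08). Without replicate 1 the unstimulated control value was -1.09 ± 0.188. No call of ATF4 was lost when any 1 library was left out. In unstimulated control, 18.5% of all genes had a lower fold change than ATF4.

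PHGDH was lower in polysome RNA, with log2 fold changes of -0.87 ± 0.347 in unstimulated control, -0.92 ± 0.349 in unstimulated knockdown, -1.06 ± 0.349 in IL-13 control and -1.28 ± 0.351 in IL-13 knockdown cells (SE, edgeR adjusted p of 0.0431, 0.0334, 0.0139 and 0.00337). In IL-13 knockdown cells its polysome libraries, at 54.5, 75.4, 40.3, 79.2 and 43.3 CPM, were all under the input libraries. The IL-13 calls held in all 10 fits that left out a library. In unstimulated control its call was lost without input unstimulated control replicate 1 (0.275), polysome unstimulated control replicate 2 (0.114), polysome unstimulated control replicate 3 (0.116) or polysome unstimulated control replicate 5 (0.119), and in unstimulated knockdown cells without polysome unstimulated knockdown replicate 2 (0.0536), input unstimulated knockdown replicate 2 (0.0581), polysome unstimulated knockdown replicate 4 (0.0573), polysome unstimulated knockdown replicate 5 (0.173) or input unstimulated knockdown replicate 5 (0.0587) (edgeR adjusted p in parentheses). Both unstimulated calls were also lost in fits of only the groups compared (0.12 and 0.0742), and that in knockdown cells in libraries of at least 5000000 counts (0.0966). Polysome replicate 5 of unstimulated knockdown, the shallowest library, held the lowest PHGDH level of all, 13.7 CPM.

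DDIT3 in IL-13 knockdown cells measured 7.01, 10.0, 5.72, 8.69 and 9.49 CPM in input and 3.64, 4.83, 2.92, 3.73 and 0.867 CPM in polysome RNA, without overlap (21.5% of all genes were lower without overlap). Its log2 fold change was -1.27 ± 0.481 (SE, edgeR adjusted p = 0.0334), and the call was lost without input IL-13 knockdown replicate 2 (0.0646), polysome IL-13 knockdown replicate 3 (0.0659), input IL-13 knockdown replicate 4 (0.0523), polysome IL-13 knockdown replicate 5 (0.0745) or input IL-13 knockdown replicate 5 (0.0578). It was also lost in libraries of at least 5000000 counts, at -0.95 (edgeR adjusted p = 0.126). In the other groups DDIT3 had values of -0.65 ± 0.466, -0.83 ± 0.483 and -0.81 ± 0.473, below 0 in each. PSPH in unstimulated control cells had a log2 fold change of 0.96 ± 0.314 (edgeR adjusted p = 0.013), and its call was lost without polysome unstimulated control replicate 1 (0.387) or input unstimulated control replicate 3 (0.0502), and in the fit of only the groups compared (0.123). With replicate 1 left out of both fractions, PSPH was at 0.75 ± 0.205 (edgeR adjusted p = 0.00361), and all 4 polysome libraries lay above all 4 input libraries, as for 13.9% of all genes.

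PSAT1, whose product acts between PHGDH and PSPH, had values above 0 in all 4 groups, 1.13 ± 0.529, 0.63 ± 0.529, 0.52 ± 0.525 and 0.60 ± 0.528 (SE), none of them called. In IL-13 knockdown cells it measured 43.7, 50.6, 48.3, 48.8 and 58.4 CPM in input and 67.1, 97.4, 64.6, 76.5 and 71.9 CPM in polysome RNA, where every polysome library was higher (12.3% of all genes). In the fit without replicate 1, 3, 1, 1 and 1 of the 10 genes were called higher and 3, 2, 3 and 3 lower, in the order of groups above. Over all genes that fit called 16%, 16.7%, 17.1% and 16.2% higher and 21.8%, 22.5%, 23.1% and 23.9% lower. Among the calls it added were, in unstimulated control, ASNS lower (-1.42 ± 0.528, edgeR adjusted p = 0.0315) and PSAT1 and TRIB3 higher (0.73 ± 0.24 and 0.69 ± 0.267, edgeR adjusted p of 0.0149 and 0.0399). It also called PSAT1 higher in both knockdown groups, and ASNS lower and PSPH higher in IL-13 control cells. CHAC1, SESN2 and STC2 were called in neither fit, with values between -0.12 and 0.90 in the fit of 40 libraries.

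**Figure D5:**
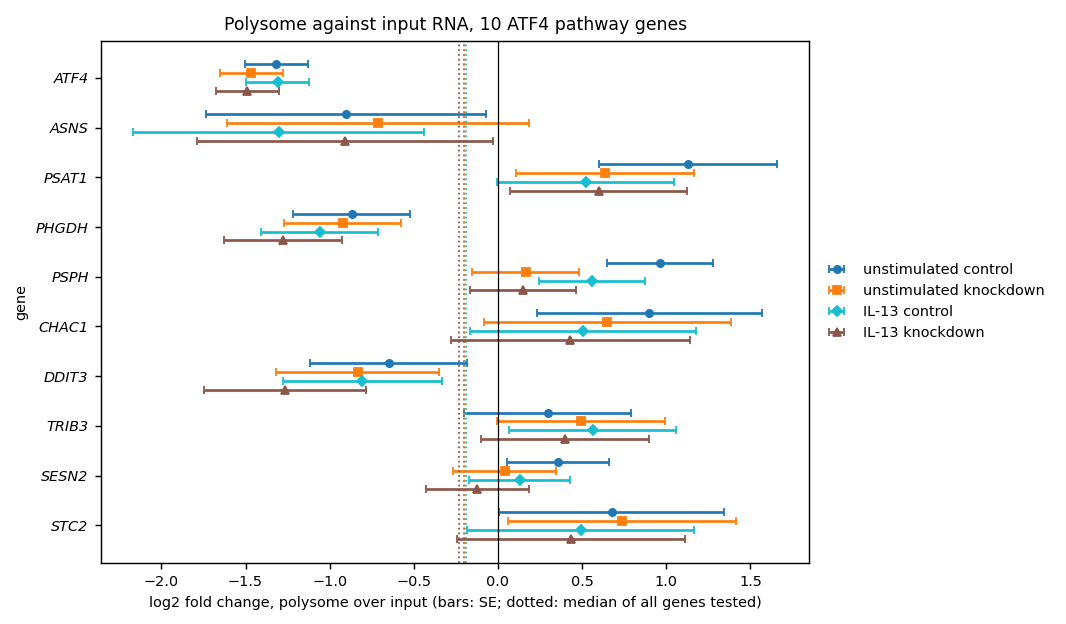
log2 fold change of polysome over input RNA for the 10 genes in the 4 groups of line and treatment, with standard errors as bars and dotted lines for the median of all genes tested in each group. ATF4 lies at -1.49 to -1.31 and PHGDH at -1.28 to -0.87 in all groups, and PSAT1 lies right of 0 in all 4.

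Leader sequences before the annotated start codon were counted for ATG triplets in GENCODE 29 principal transcripts. ATF4 has 7 in a leader of 882 bases, PHGDH 10 in 833, PSPH 6 in 806, STC2 11 in 1310, TRIB3 3 in 553, ASNS 2 in 529, DDIT3 2 in 209 and SESN2 1 in 321. PSAT1 (68 bases) and CHAC1 (20 bases) have none. Over 13366 genes tested with a coding transcript, the median leader had 200 bases and 52.7% had 1 or more such ATG. In unstimulated control the median polysome log2 fold change was -0.18 for genes with 1 or more and -0.037 for genes with none. Of the 10 genes, ATF4, PHGDH, ASNS and DDIT3 had polysome log2 fold changes below 0 in all 4 groups, PSPH, STC2, TRIB3, PSAT1 and CHAC1 above 0 in all 4, and SESN2 above 0 in 3. No relation to the number of ATGs was tested over these genes. Which transcript these cells use was not tested.

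The other lists of the pathway are given by their calls between polysome and input RNA, where the shares of all genes are the 16% to 17.4% called higher and 22% to 23.3% called lower given above. No list was tested against those shares. Of 12 tRNA synthetases 7 were called lower and 1 higher in each of the 4 groups, with medians of -1.06, -1.20, -1.33 and -1.23. In unstimulated control EPRS1 was lower with a log2 fold change of -2.95 ± 0.362 and AARS1 with -2.47 ± 0.373 (SE), and YARS1 was higher with 1.30 ± 0.317. Of 12 amino acid transporters 3, 3, 5 and 4 were lower and 0 higher, among them the neutral amino acid transporter SLC38A2 (-1.56 ± 0.333 in unstimulated control). Of 15 other metabolic targets 6, 2, 5 and 3 were higher and 3, 2, 4 and 3 lower, with MTHFD2, a mitochondrial folate enzyme, at 1.50 ± 0.316 and PYCR1, which makes proline, at 1.03 ± 0.237. Of 15 upstream eIF2 kinases and regulators 5, 4, 4 and 5 were higher and 1 lower in each group, that 1 being GCN1 (-2.59 ± 0.191), which activates GCN2. Of 18 genes of the ATF6 and XBP1 branches 3, 4, 3 and 2 were higher and 7, 4, 5 and 5 lower, with the chaperone HSPA5 at -2.61 ± 0.282. Of 14 other stress targets 2 were higher in each group, and 3, 2, 3 and 3 lower. No gene of these lists was called for IL-13 or for the knockdown.

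Across libraries the 10 genes moved together, also without replicate 1. Over the other 38 libraries, on log2(CPM + 1) centred on the mean of the fraction, the 45 pairs of genes had Pearson correlations of 0.180 to 0.818 with a median of 0.568, and 29 were over 0.5. PSAT1 and CHAC1 were the closest pair. The points share line, treatment and depth, and no value for pairs of other genes is given beside them, so these values describe the libraries.

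Within the control groups the high libraries were the same for many of the genes. No share of all genes is given beside these counts, so they are a description. In control input with IL-13, replicate 4 was the highest of 5 for 8 of the 10 genes, and in unstimulated control input replicate 5 was the highest of replicates 2 to 5 for 6. In unstimulated control polysome RNA replicate 4 was the highest of replicates 2 to 5 for 8 genes, with CHAC1 at 27.2 CPM, although input replicate 4 of that group was the lowest for 3 genes and held CHAC1 at 2.68 CPM. In IL-13 control, polysome replicate 2 was the highest for 6 genes, while input replicate 2 was the highest for none and the lowest for 5. In unstimulated control, replicate 3 was the lowest of replicates 2 to 5 for 7 genes in both fractions. In unstimulated knockdown cells no library was the highest for more than 4 genes in input (replicate 2) or 5 in polysome RNA (replicate 4). With IL-13 the most in knockdown cells was 5 in input (replicate 1) and 7 in polysome RNA (replicate 2).

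The genes most like the mean of the list were sought among 13102 genes with a mean of at least 1 CPM. Over 40 libraries they were GPT2, an alanine aminotransferase (Pearson r = 0.954), CEBPB (0.938), ADM2 (0.936), ARG2 (0.892) and DUSP5 (0.878). Over the 38 libraries without replicate 1 they were CHST7 (0.859), GPT2 (0.857), ADM2 (0.853), PYCR1 (0.846) and ZCCHC3 (0.835). Among the list itself CHAC1 (0.923) was the closest to the mean over 38 libraries and STC2 (0.594) the farthest, each being part of that mean.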

How the data were processed

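The deposited table gives, per gene and library, estimated counts and TPM, per the file headers. Per the submitters' processing notes, MultiQC, Trimmomatic, Salmon and DESeq2 were used, with no roles; the genome build and annotation are not given in the sources used here. Libraries were made from polyA-selected RNA with stranded kits, per the labels' protocols. The deposited TPM were scaled by the authors for length and depth, and summed to 82.3% to 85.9% of a full set, so other genes took part in that scaling. The deposited estimated counts, where plain counts had been assumed, were rounded and tested as counts. No replicate pair was a copy (lowest chi-square per degree of freedom 16.2 over 80 pairs).

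Genes were kept with filterByExpr (16735 genes, at least 99.9% of counts), scaled with TMM and fitted with edgeR 4.0.16 in R 4.3.3, with 1 mean for each of the 8 groups, over 40 libraries (32 residual degrees of freedom). Two-sided p-values were corrected within each of 18 comparisons for all genes tested (Benjamini-Hochberg), and a gene was called under 0.05. The procedure was tested on simulated data. Of the table's identifiers 17 had no symbol. One marker gene is not reported here.

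The 10 genes, the other gene lists and the tests were chosen with earlier results of these data known. All 10 genes are named. From other lists up to 4 genes of smallest p are named per comparison, and for replicate 1 the 4 of largest input log2 ratio. The 5 most similar genes come from Pearson's r on log2(CPM + 1). Some genes named beside them show where a count falls.

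Alternatives were the Wald test of DESeq2 1.42.0, its size factors in edgeR, a filter of 1 count, fits of only the groups compared or the 20 libraries of a fraction, a replicate block by number or by culture, 38 libraries without unstimulated control replicate 1, 37 libraries of at least 5000000 counts, each library left out in turn, TPM for the folds of replicate 1, and Spearman's rho. Promoter sequences came from RefSeq (GRCh38.p14), and leaders from GENCODE 29.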

Additional observations from a re-analysis of the deposited data

Results flagged for a closer look

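Of 80 sets of 5 values (10 genes in 8 groups), 15 held 1 library far from the other 4, by the ratio of its gap to the range of the set (over 0.71). Chance flags about 1 in 20 such sets, but replicate 1 of unstimulated control, which accounted for 13 of the 15, was in view when the list was chosen, so the number of sets is no evidence. The 10 genes also move together over libraries.

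In input that replicate stood apart for ASNS (346 CPM, others 5.35 to 27.7), PSAT1 (566 CPM, others 49.1 to 110.3), PHGDH (538 CPM, others 193 to 234), PSPH (64.0 CPM, others 17.6 to 27.8), DDIT3 (62.1 CPM, others 8.12 to 11.0), TRIB3 (375 CPM, others 26.2 to 62.1) and STC2 (249.9 CPM, others 13.3 to 48.2). In polysome RNA it stood apart for ASNS (197 CPM, others 1.18 to 13.6), PSAT1 (1399.7 CPM, others 84.4 to 171), PSPH (149 CPM, others 28.2 to 52.5), TRIB3 (397 CPM, others 42.0 to 105), SESN2 (153 CPM, others 34.6 to 66.7) and STC2 (434 CPM, others 14.6 to 74.9).

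The other 2 lay in input of control cells with IL-13, in different libraries. ATF4 measured 322 CPM in replicate 3, against 269 to 283 CPM in the others, and PSPH measured 24.6 CPM in replicate 4, against 21.3 to 22.2 CPM. Both sets were narrow, and both values lay within the range of unstimulated control input.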

How the results depend on the processing

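The replicate numbers were not taken as a pairing: libraries of input and polysome RNA with the same number deviated together (r over 0.1) in 9 of 20 pairs (median 0.0145, -0.487 to 0.621, over 8920 genes). With the replicate number as a replicate block, 3, 2, 2 and 3 of the 10 genes were called between polysome and input RNA, as without it, and 0 elsewhere.

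Apart from leaving out single libraries, the log2 fold changes gave 830 values with the same direction and call, 31 that passed the threshold only under the alternative, 5 that lost it and 14 that turned sign. The 5 were between polysome and input RNA: with only the groups compared, PHGDH (-0.82) and PSPH (1.00) in unstimulated control and PHGDH (-0.82) in unstimulated knockdown, and with libraries of at least 5000000 counts, PHGDH (-0.72) there and DDIT3 (-0.95) in IL-13 knockdown. Mean CPM under DESeq2 size factors and folds of replicate 1 on TPM moved by less than the spread between replicates; CPM levels were not recomputed on TPM. The cause of the changes below was not tested.

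With 38 libraries the log2 fold changes that turned were those of ATF4 (0.082), PHGDH (0.034) and PSPH (0.0044) for IL-13 in control input, and ATF4 (0.027) for the knockdown in unstimulated input. For IL-13 in knockdown input PHGDH turned with 20 libraries of a fraction (-0.0052), the replicate block (-0.018) and libraries of at least 5000000 counts (-0.010). For IL-13 in knockdown polysome RNA ATF4 (0.010) and SESN2 (0.0040) turned with 20 libraries, and PSAT1 (-0.036) and TRIB3 (0.038) with deep libraries. STC2 turned for the knockdown with IL-13 in input under the replicate block (0.11), and SESN2 between polysome and input RNA with the culture as a block in unstimulated knockdown (-0.051) and with only the groups compared in IL-13 knockdown cells (0.023).

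The number of the 10 genes called moved from 0 to 1 for IL-13 in control polysome RNA, 2 for the knockdown in unstimulated input and 4 in unstimulated polysome RNA with the DESeq2 Wald test, and to 2 and 2 in the latter settings with no filter. Between polysome and input RNA it moved in unstimulated control from 3 to 1 (only the groups compared) and 6 (38 libraries), in unstimulated knockdown from 2 to 1 (deep libraries), in IL-13 control from 2 to 6 (only the groups), 4 (culture block) and 4 (38 libraries), and in IL-13 knockdown from 3 to 5 (only the groups). Smaller moves are not listed. For example, 38 libraries also called PSAT1 in unstimulated and IL-13 knockdown cells (edgeR adjusted p of 0.0182 and 0.0262). Leaving out 1 library gave 0 to 3 called for the knockdown in unstimulated polysome RNA, 2 to 6 between polysome and input RNA in unstimulated control and 1 to 2 in unstimulated knockdown.

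Leaving out 1 library in turn gave log2 fold changes that crossed 0, with these ranges. For IL-13 in control input they were ATF4 -0.22 to 0.081, PHGDH -0.46 to 0.034 and PSPH -0.60 to 0.0040, in knockdown input ATF4 -0.065 to 0.061, PHGDH -0.036 to 0.049, TRIB3 -0.057 to 0.16 and DDIT3 -0.19 to 0.0086, in control polysome RNA ATF4 -0.24 to 0.016, and in knockdown polysome RNA ATF4 -0.13 to 0.056, TRIB3 -0.11 to 0.0040, CHAC1 -0.047 to 0.32, PSAT1 -0.036 to 0.23 and SESN2 -0.17 to 0.15. For the knockdown they were ATF4 -0.28 to 0.027 in unstimulated input, STC2 -0.43 to 0.041 and ATF4 -0.11 to 0.0067 with IL-13 in input and STC2 -0.45 to 0.015 with IL-13 in polysome RNA. Between polysome and input RNA they were PSAT1 -0.46 to 2.32, TRIB3 -0.71 to 1.69, SESN2 -0.16 to 0.73, STC2 -0.88 to 1.96, ASNS -3.71 to 1.39 and DDIT3 -1.20 to 0.42 in unstimulated control, where replicate 1 was left out of 1 fraction only, SESN2 -0.16 to 0.33 in unstimulated knockdown and CHAC1 -0.017 to 0.95 in IL-13 control cells.

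Over all genes, counts called moved by more than 1.5 times to 33 (from 13), 22 (from 14), 61 (from 21), 36 (from 16), 28 (from 2), 55 (from 0), 89 (from 5), 144 (from 15), 6 (from 0), 25 (from 0), 20 (from 0), 5 (from 0), 10 (from 0) and 10 (from 1) with the DESeq2 Wald test, 9 (from 21), 8 (from 16), 18 (from 2), 23 (from 0), 1 (from 5) and 0 (from 15) with 20 libraries, 7 (from 2), 8 (from 0), 28 (from 15) and 1 (from 0) with 38, 10 (from 16), 7 (from 2), 30 (from 15) and 1 (from 0) with deep libraries, 11 (from 2), 19 (from 0), 13 (from 5), 1 (from 0) and 1 (from 0) without the filter, 5 (from 2) and 8 (from 5) with DESeq2 size factors, 0 (from 2) and 3 (from 5) with the replicate block and 0 (from 1) with the culture as a block. Of the 5 genes most like the list, 1 was shared with Spearman's rho in both sets of libraries. Depth limits CHAC1 most: in 3 polysome libraries, all of knockdown cells, it held 1 to 6 counts.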
